A study of Mus musculus with 39 samples.

Results

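Granulosa cells and embryonic fibroblasts were the primary mouse cells that the series profiled as starting material for chemical reprogramming, and their transcript levels are compared here. The comparison rests on 4 of the series' 39 RNA sequencing libraries, chosen by their labels alone: 2 of granulosa cells and 2 of mouse embryonic fibroblasts (MEF), all from mice of strain C57BL6/CBA and all without a listed treatment. The labels give no age, sex, tissue dissection or passage for either cell type, and they do not say whether the 2 libraries of a cell type came from separate animals or cultures, so the spread between them may be technical. The other libraries of the series cover reprogramming cells, pluripotent lines derived from granulosa cells, embryonic stem cells and germ cell induction, and of these 2 day 16 libraries are used below, because the series' design asks which starting cell type lies nearer to cells at that stage.

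Granulosa cells surround the oocyte in the ovarian follicle. They take up cholesterol, turn it into progestagens and, together with theca cells, into estrogens, secrete inhibin and activin, and feed the oocyte through gap junctions and ligands such as KIT ligand. Embryonic fibroblasts are the mixed mesenchymal cells that grow out of a minced mouse embryo; they lay down fibrillar collagen and elastic fibres, carry actin stress fibres, and keep part of the positional code of the body region they came from. In bulk RNA, fewer cells of a type and less RNA per cell cannot be told apart.

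The values are FPKM (fragment numbers scaled to transcript length and to library size) and lie in 3 tables that were normalised separately: the first granulosa library in 1 table, the second granulosa library and 1 fibroblast library together in a shared table, and the other fibroblast library in a separate table of its own. Both fibroblast columns could be matched to the group and not to a numbered sample. Throughout, granulosa values are given in the order library 1, library 2, and fibroblast values in the order shared table, separate table. Summed FPKM ran from 386624 to 441413 in the 4 libraries, and 11268 to 12182 genes reached 1 FPKM. Depth could be recovered only for the fibroblast library of the separate table, whose values resolved into 19244957 whole reads over 77.5% of its genes; it is unknown for the other 3, so no counting intervals are given. Transcripts of Eif2s3y, Ddx3y, Uty and Kdm5d, all from the Y chromosome, summed to 22.5 FPKM in the fibroblast library of the separate table, were at 0 in the other fibroblast library and in granulosa library 2, and did not pass 0.06 FPKM in granulosa library 1, so Y-linked transcripts were found in 1 of the fibroblast libraries.

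The granulosa libraries lay closer to each other in these values than the fibroblast libraries did, but the gap between the fibroblast libraries moved with the ratio of merged exon to transcript length. Over the 12083 genes with at least 1 FPKM in at least 1 of the 4 libraries, log2(FPKM + 1) differed between the granulosa libraries with an SD of 0.31, and 139 genes (1.15%) lay 1 log2 unit or more apart. Between the fibroblast libraries the SD was 0.88 and 2213 genes (18.3%) lay that far apart, against 8 genes (0.0662%) for the 2 embryonic stem cell libraries that sit in the shared table. Disagreement between the fibroblast libraries was more frequent among overlapping genes: of the 238 genes that share at least 50% of their exon bases with another gene, 60.5% lay 1 log2 unit or more apart between the fibroblast libraries, against 17.5% of the other 11845. The ribosomal protein gene Rpl23a, which overlaps other genes in part, stood at 1848 FPKM in the shared and 9.18 FPKM in the separate table. Other genes that differed between the fibroblast libraries share no exon bases with a neighbour: Mt1, a metallothionein, stood at 16.5 and 133 FPKM and Rgcc, a cell cycle regulator, at 2.25 and 22.5 FPKM. The whole reads of the separate table came out with the merged exon length of each gene, and the length used in the other tables is not given in the sources used here. Across 12059 genes, which are not independent replicates, the difference between the fibroblast libraries rose with the ratio of merged exon length to mean transcript length (Spearman's rho 0.336), against -0.0575 for the granulosa pair, 0.154 for granulosa cells minus fibroblasts over all 4 libraries and 0.0311 for that difference within the shared table. For the fibroblast pair, a difference between tables and one between samples cannot be told apart. Lrrc17 differed most between the granulosa libraries among genes of at least 20 FPKM in 1 of them, with 0.1 and 76.0 FPKM. The genes that ranked directly after it were high in both libraries of the shared table, across the cell types. In granulosa library 1 and the separate fibroblast table they were low, and the cause was not tested.

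**Figure D1:**
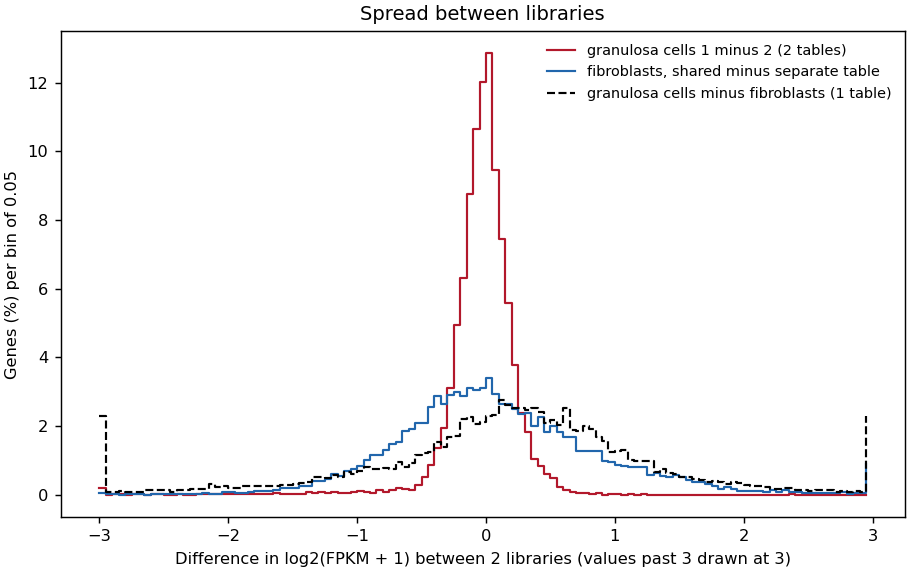
Distribution over 12083 genes of the difference in log2(FPKM + 1) between 2 libraries, in percent of genes per bin of 0.05; the red line compares the granulosa libraries, the blue line the fibroblast libraries, and the dashed line granulosa library 2 with the fibroblast library of the same table. The granulosa pair is the narrowest (SD 0.31), the fibroblast pair is wider (SD 0.88), and the pair of cell types within 1 table is the widest (SD 1.35).

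Of all compared genes, 2463 (20.4%) separated granulosa cells from fibroblasts. A gene was counted as separated where both granulosa values lay above, or both below, both fibroblast values, with at least 1 log2 unit between the nearest values. By this rule 1457 of 12083 genes (12.1%) were higher in granulosa cells and 1006 (8.33%) in fibroblasts. These shares are the background for every count below. Without the fibroblast library of the shared table, 2759 genes were higher in granulosa cells and 1508 in fibroblasts. With no minimum gap, 5614 genes (46.5%) lay above and 3037 (25.1%) lay below in both granulosa libraries. No test was made, since the libraries lie in separately normalised tables and 2 libraries against 2 cannot give a two-sided exact permutation p below 0.333. Within the shared table alone, with 1 library a cell type, 2234 genes (18.5%) were at least 1 log2 unit higher in granulosa cells and 1499 (12.4%) in fibroblasts. The median difference of all compared genes was 0.29 log2 units towards granulosa cells, and list medians below are to be read against that value. The balance of directions depended on scaling: of the separated genes 59.2% were higher in granulosa cells with FPKM as deposited, 45.5% after median-ratio scaling, 47.4% after quantile normalisation and 49.9% after scaling to equal sums. No separated gene became separated in the opposite direction under any of these scalings.

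Large differences were found on both sides. Among separated genes, 272 were at least 3 log2 units higher in granulosa cells and 272 at least 3 units higher in fibroblasts, and 58 and 63 genes reached 5 units. Of the genes that averaged at least 100 FPKM in the cell type where they were higher, the 191 granulosa genes stood in fibroblasts at a median of 12.8% of their granulosa level (range 0.0439% to 44.2%), and the 104 fibroblast genes stood in granulosa cells at a median of 5.79% (range 0% to 40.7%). Both values were at 0 in fibroblasts for 17 of all genes higher in granulosa cells, and at 0 in granulosa cells for 51 of those higher in fibroblasts.

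**Figure D2:**
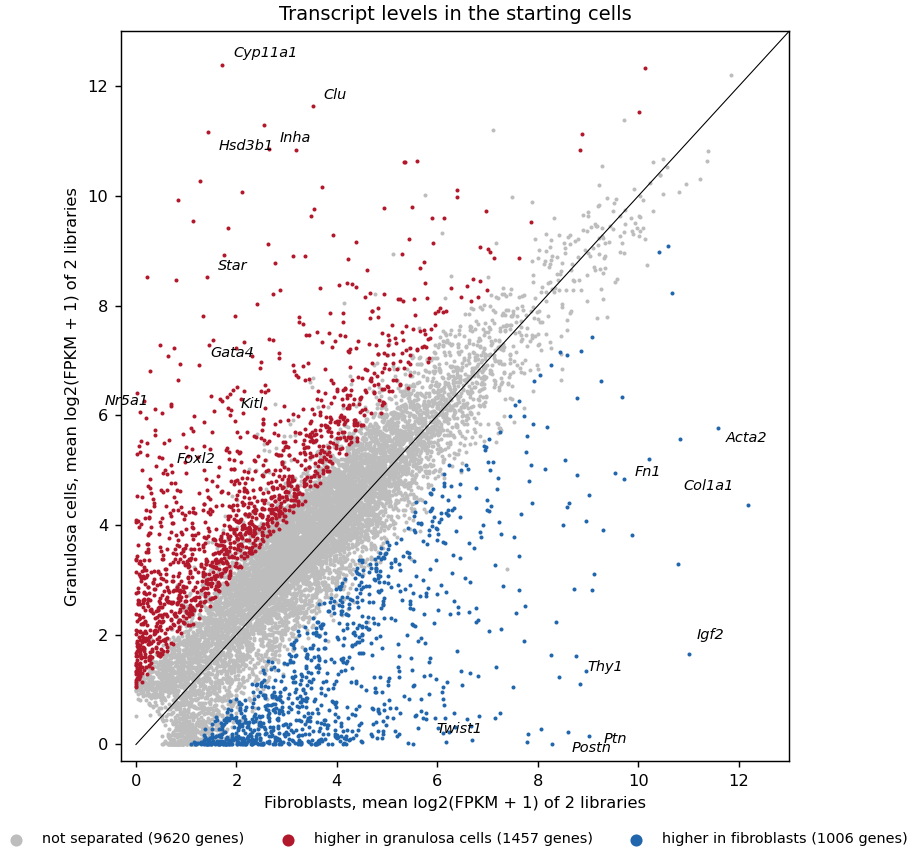
Mean log2(FPKM + 1) of the 2 granulosa libraries against that of the 2 fibroblast libraries, 1 point a gene; red and blue mark the 1457 and 1006 separated genes, grey the others, and the line marks equal levels. Steroid synthesis genes such as Cyp11a1 and Hsd3b1 lie at the upper left, and Igf2, Postn and Col1a1 at the lower right.

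The defining markers followed the labels. Cyp11a1 encodes the mitochondrial side-chain cleavage enzyme that opens steroid synthesis, and it was the most different gene of all, with 5407 and 5339 FPKM in granulosa cells and 3.07 and 1.65 FPKM in fibroblasts, a difference of 10.68 log2 units. Inha, the alpha subunit of inhibin, stood at 2309 and 1490.2 FPKM against 2.71 and 9.47 FPKM. Foxl2, the transcription factor that maintains ovarian identity, stood at 35 and 27.7 FPKM against 0.04 and 1.16 FPKM. All 3 granulosa markers were high in both granulosa libraries and low in both fibroblast libraries. In the other direction, Col1a1, the main chain of type I collagen, had 4182 and 5157 FPKM in fibroblasts and 19.7 and 19.7 FPKM in granulosa cells, and the surface glycoprotein gene Thy1 had 443 and 425 FPKM in fibroblasts and 2.03 and 2.08 FPKM in granulosa cells. The granulosa markers were not at 0 in the separate fibroblast table, where Cyp11a1 corresponded to 170 reads.

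The 12 genes furthest apart on the granulosa side encode proteins of several kinds, and Cyp11a1 led them. Next came Hsd3b1, which makes progesterone from pregnenolone (2383 and 2228 FPKM against 1.06 and 2.51 FPKM, 9.74 log2 units), the aldo-keto reductase relative Akr1cl (922 and 1010.1 against 0.23 and 1.63 FPKM) and the soluble epoxide hydrolase gene Ephx2 (1210.5 and 1255 against 0.95 and 2.04 FPKM). Aldh1a1, which oxidises retinaldehyde to retinoic acid, stood at 2406 and 2603 FPKM against 1.84 and 11.2 FPKM, and Adh1, an alcohol dehydrogenase, at 1123 and 1017 against 2.17 and 4.86 FPKM. Mrap encodes the accessory protein of the ACTH receptor, and stood at 383 and 350.3 FPKM against 0.29 and 0.0636 FPKM. The secreted chaperone gene Clu (3316 and 3042 FPKM against 8.2 and 13.2 FPKM) and the secreted Wnt antagonist gene Sfrp4 (1780.3 and 1885 FPKM against 5.7 and 11.5 FPKM) were among the most abundant of them. Mgarp, a mitochondrial protein gene, the neuritin gene Nrn1 and Inha complete the group, with differences of 8.40, 7.67 and 8.22 log2 units. For each of the 12, the lowest granulosa value was at least 7.15 log2 units above the highest fibroblast value.

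Of the 12 genes furthest apart on the fibroblast side, 9 encode matrix proteins. Igf2, an imprinted fetal growth factor gene, led them with 2230.2 and 1919 FPKM in fibroblasts and 1.72 and 2.63 FPKM in granulosa cells, a difference of -9.36 log2 units. Igf2 shares 64.5% of its exon bases with another annotated gene, so its reads may be counted differently in the tables, although its fibroblast values were close. Ptn, a heparin-binding growth factor, stood at 311 and 862 FPKM against 0.05 and 0.19 FPKM, and Crabp1, a retinoic acid binding protein, at 198 and 481 FPKM while it was listed at 0 in both granulosa libraries. These 9 were Postn, Col1a1, Thbs2, Aspn, Mgp, Mfap4, Eln, Col1a2 and Col6a2, at differences of -8.39 to -7.20 log2 units. Postn, the adhesive matrix protein periostin, had 407 and 371 FPKM in fibroblasts and 0.19 and 0.14 FPKM in granulosa cells, and Eln, which encodes elastin, 376 and 646 and 1.69 and 1.41 FPKM. The groups did not overlap for any of these genes.

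**Figure D3:**
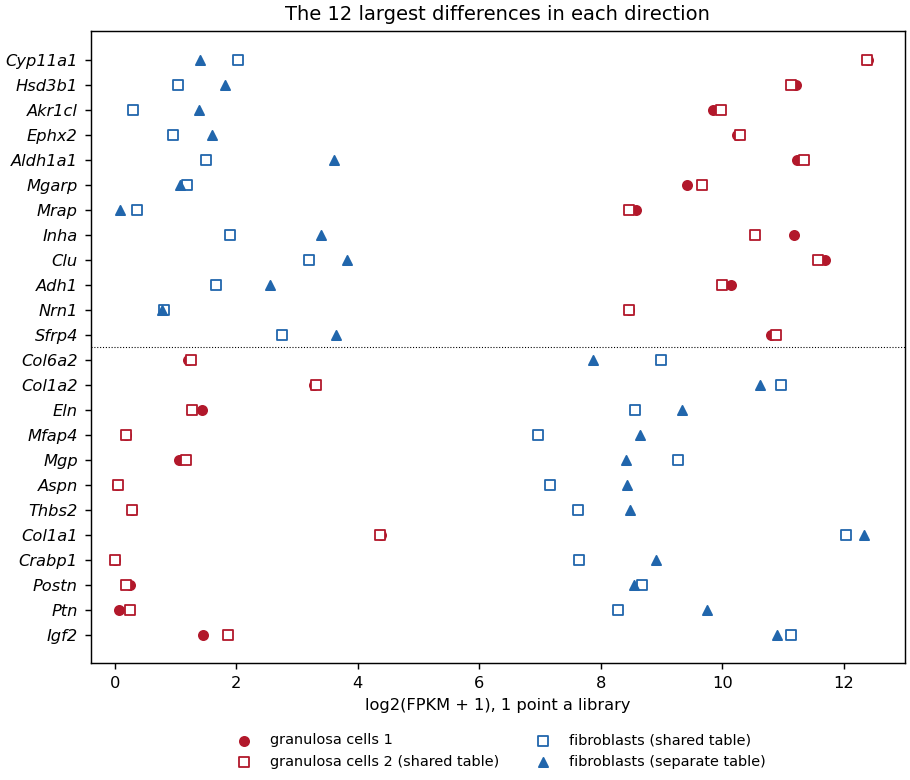
Values of log2(FPKM + 1) in each of the 4 libraries (1 point a library) for the 12 genes with the largest difference in each direction, granulosa genes above the dotted line and fibroblast genes below it. Red symbols are granulosa libraries and blue symbols fibroblast libraries, and open squares are the pair of the shared table; the colours do not overlap for any gene.

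Genes of steroid synthesis up to progesterone were higher in granulosa cells, and aromatase was barely detected. Of 16 listed genes, 12 were compared, 8 were separated, all higher in granulosa cells, and the median difference was 4.30 log2 units. Star, whose product carries cholesterol into mitochondria, stood at 339.6 and 390.5 FPKM against 1.07 and 2.46 FPKM. The electron carriers of the side-chain cleavage enzyme went with it: ferredoxin, Fdx1, stood at 812 and 917 FPKM against 6.5 and 17.3 FPKM, and ferredoxin reductase, Fdxr, at 222 and 223 FPKM against 2.06 and 4.02 FPKM. These genes were low but detected in both fibroblast libraries. Hsd17b1, which reduces estrone to estradiol, had 60.3 and 55.1 FPKM in granulosa cells and 0.86 and 2.5 FPKM in fibroblasts, and Por, the electron donor of microsomal P450 enzymes, 150.3 and 160.2 and 33 and 21.1 FPKM. Akr1c18, which inactivates progesterone, had 15.9 and 16.1 FPKM and was listed at 0 in both fibroblast libraries; it belongs to a family of near-identical enzymes, whose reads can be split between members. Cyp19a1, which encodes the estrogen-making aromatase, had 0.29 and 0.35 FPKM in granulosa cells and a listed value of 0 in both fibroblast libraries. Cyp17a1, the androgen-producing enzyme of theca cells, was listed at 0 in all 4 libraries.

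Genes of cholesterol supply were separated in 1 direction. Of 19 compared genes, 5 were separated and all were higher in granulosa cells, with a list median of 0.57 log2 units. Scarb1, the receptor that takes cholesterol ester from high-density lipoprotein, stood at 1295 and 1022 FPKM against 19.3 and 7.41 FPKM, and Soat1, which stores cholesterol as ester, at 179 and 147 FPKM against 18.1 and 11.7 FPKM. Lipe, the lipase that frees cholesterol from its esters, had 11.8 and 10.4 against 0.32 and 0.49 FPKM, and Npc1, which exports cholesterol from lysosomes, 19.1 and 18.1 against 6.56 and 5.09 FPKM. Dhcr7, the last enzyme of synthesis, was the separated gene of that branch, with 116 and 85.6 FPKM against 8.81 and 11.2 FPKM. The other 14 genes of the list were compared and not separated.

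Hormone and growth factor receptor genes went in both directions. Of 20 compared receptor genes, 6 were higher in granulosa cells and 5 in fibroblasts. Amhr2, the receptor of anti-Müllerian hormone, was the most different at 49.2 and 42.6 FPKM against 0.1 and 1.26 FPKM, followed by the prolactin receptor gene Prlr at 14.7 and 14.7 FPKM against 0.18 and 0.291 FPKM. The adiponectin receptor gene Adipor2 and the bone morphogenetic protein receptor gene Bmpr2 were higher in granulosa cells by 2.34 and 1.80 log2 units. Lhcgr, the receptor of luteinising hormone, was low, at 1.57 and 1.66 FPKM against 0 and 0.0182 FPKM. Higher in fibroblasts were Igf2r, which clears IGF2 (58.4 and 115 FPKM against 13.3 and 14.4 FPKM), the growth hormone receptor gene Ghr (35.6 and 14.7 against 3.64 and 3.2 FPKM), the estrogen-binding G protein-coupled receptor gene Gper1, the activin receptor gene Acvr2a and the glucocorticoid receptor gene Nr3c1.

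The promoter of Amhr2 is shown because it was the 1 gene among the separated receptors whose start region holds AAGGTCA, the sequence that the granulosa factors NR5A1 and NR5A2 are known to bind. Windows of 250 bases before to 50 bases after a gene's start were taken from RefSeq (GRCm38.p6) and searched on both strands, and 101 of the 159 genes singled out had a window. The Amhr2 window lies at chr15:102445117-102445416 on the plus strand, and capitals mark the motif, which begins 231 bases before the start.
Amhr2: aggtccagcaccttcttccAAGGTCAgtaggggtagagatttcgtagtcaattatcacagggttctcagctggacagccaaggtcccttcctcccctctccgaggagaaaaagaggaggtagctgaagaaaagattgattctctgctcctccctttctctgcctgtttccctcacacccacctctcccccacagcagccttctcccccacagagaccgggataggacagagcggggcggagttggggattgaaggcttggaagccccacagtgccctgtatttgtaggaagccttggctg
The motif was in 3.80% of 1605 windows of genes higher in granulosa cells, in 2.29% of 917 windows of genes higher in fibroblasts and in 3.19% of 12244 windows of all compared genes. None of the 10 steroid synthesis genes with a window held it.

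Transcription factors of granulosa identity were separated in 1 direction. Of 19 compared factors, 11 were separated and all 11 were higher in granulosa cells, with a list median of 1.65 log2 units. The nuclear receptors that drive steroid synthesis genes were among the most different factors. Nr5a2 stood at 77.6 and 73.5 FPKM against 0.15 and 0.0789 FPKM and Nr5a1 at 68.4 and 62.2 FPKM against 0.09 and 0.878 FPKM. Gata4, a zinc finger factor of the gonad, stood at 129.8 and 112 FPKM against 0.36 and 3.2 FPKM. These factors were near 0 in the fibroblast library of the shared table, and Gata4 alone of them passed 1 FPKM in the separate table. Esr2, the estrogen receptor beta gene, had 7.85 and 8.16 FPKM against 0.76 and 0.0553 FPKM. Other factors were shared with fibroblasts at lower levels: Cited2, a transcriptional coregulator, had 627 and 566 FPKM against 41.9 and 42.5 FPKM, Emx2 36.4 and 39.6 against 8.62 and 10.1 FPKM and the gonadal and kidney factor Wt1 13.4 and 11.8 against 3.49 and 3.14 FPKM. Foxo1, Runx1 and Runx2 were higher in granulosa cells by 1.93, 1.26 and 1.86 log2 units.

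Some hormone subunit genes and signals to the oocyte were higher in granulosa cells. In the inhibin, activin and anti-Müllerian hormone list, Inha, Inhba and Amhr2 were the 3 separated genes of 11, all higher in granulosa cells, and 8 were not separated. Another 2 of the 13 listed genes stayed under 1 FPKM in all 4 libraries. Among them was Amh, the hormone gene itself, at 0.45 and 0.63 FPKM against 0.11 and 0.755 FPKM. Inhba, the beta A subunit shared by inhibin A and activin A, was also abundant in fibroblasts, with 456 and 554 FPKM against 209 and 82.6 FPKM, and the gap fell below 1 log2 unit after median-ratio scaling and after scaling to equal sums. Kitl, the KIT ligand that acts on the oocyte, stood at 63.8 and 62.8 FPKM against 2.41 and 2.92 FPKM, and Gja1, the gap junction subunit connexin 43, at 146 and 146 FPKM against 33.8 and 65.4 FPKM. Nppc, the precursor of the peptide that holds the oocyte in meiotic arrest, had 2.59 and 2.74 FPKM against 0.09 and 0.313 FPKM.

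In the Notch, gap junction and oocyte signal list and in the cumulus list, genes were separated in both directions. The separated Notch genes were all higher in fibroblasts. Of 13 compared genes of the Notch, gap junction and oocyte signal list, 3 were higher in granulosa cells and 7 in fibroblasts: the ligand Jag1 (45.6 and 42.1 FPKM against 3.49 and 3.65 FPKM), the receptors Notch1 and Notch3, the target genes Hes1, Hey1 and Heyl, and Gjc1, connexin 45 (29.2 and 13.3 against 1.26 and 1.21 FPKM). Of 14 compared cumulus and ovulation genes, 5 were higher in fibroblasts, and these 5 make or bind hyaluronan matrix. Ptx3, a pentraxin that crosslinks it, had 81.1 and 79.5 FPKM in fibroblasts and 0.28 and 0.22 FPKM in granulosa cells, and the hyaluronan receptor gene Cd44 139.7 and 51 and 4.5 and 4.05 FPKM. Has2, which makes hyaluronan, stood at 15.2 and 6.25 against 0.12 and 0.15 FPKM, the proteoglycan gene Vcan at 45.5 and 37.5 against 2.97 and 3.04 FPKM and the hyaluronan-binding gene Tnfaip6 at 12.6 and 20.1 against 4.06 and 4.7 FPKM. Rgcc, Cebpa and Runx1 of the same list were higher in granulosa cells.

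Fibrillar collagen and its processing enzymes formed a broad fibroblast group. Of 24 listed genes, all compared, 18 were separated and all 18 were higher in fibroblasts, with a median of -3.46 log2 units. Col1a2, the second chain of type I collagen, stood at 1999.6 and 1567 FPKM against 8.67 and 8.95 FPKM, and Col3a1 at 993 and 885 FPKM against 11.6 and 14.7 FPKM. The 3 type VI chains, which form beaded filaments, stood at 586 and 529.8 FPKM (Col6a1), 507 and 233 FPKM (Col6a2) and 169 and 135 FPKM (Col6a3), against at most 7.99 FPKM in granulosa cells. Lox, the oxidase that crosslinks collagen and elastin, had 761 and 719.6 FPKM in fibroblasts and 31.1 and 29.1 FPKM in granulosa cells. The collagen chaperone gene Serpinh1 differed by less, -1.5 log2 units, with 1239 and 1898 FPKM against 562 and 520.1 FPKM, and was thus abundant in both cell types.

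Other matrix genes followed. In the matrix and matricellular list 19 of 22 compared genes were higher in fibroblasts and none was separated the other way, with the lowest median of the 24 lists, -4.63 log2 units. Tnc, the adhesion-modulating tenascin C, stood at 694 and 422 FPKM against 5.88 and 6.12 FPKM, and the elastic fibre genes Fbln5 and Fbn1 at 135 and 241 against 1.07 and 1.05 FPKM and 183 and 128 against 3.14 and 3.42 FPKM. Among small leucine-rich proteoglycans, Bgn had 1787 and 786 FPKM against 41.5 and 30.9 FPKM and Fmod 81.6 and 112 against 0.39 and 0.36 FPKM. Lum and Dcn, of the same family, were higher in fibroblasts and differed between the fibroblast libraries, at 11.9 and 83.6 FPKM for Lum and 49.8 and 126 FPKM for Dcn. Thbs1, an activator of latent TGF-beta, was abundant in both cell types, with 2370.0 and 1116 FPKM in fibroblasts and 287 and 316 FPKM in granulosa cells.

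Surface proteins used to mark fibroblasts were separated in both directions. Of 18 compared genes 12 were higher in fibroblasts, 2 were higher in granulosa cells and 4 were not separated. The platelet-derived growth factor receptor genes Pdgfrb and Pdgfra stood at 104 and 121 FPKM against 0.43 and 0.42 FPKM and at 17.1 and 22.4 FPKM against 0.43 and 0.47 FPKM. Fap, a surface protease of activated fibroblasts, stood at 8.24 and 8.66 FPKM against 0.04 and 0.04 FPKM. Higher in granulosa cells were Nt5e, the ectonucleotidase CD73, with 40 and 41.8 FPKM in granulosa cells and 1.97 and 1.59 FPKM in fibroblasts, and the receptor tyrosine kinase gene Axl, with 283 and 257 and 109 and 94.5 FPKM.

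Many mesenchymal transcription factors were near 0 in granulosa cells. Of 29 compared factors 19 were higher in fibroblasts and none was separated the other way, with a median of -2.28 log2 units. Prrx1 and Prrx2, homeobox factors of limb and face mesenchyme, stood at 112 and 69.6 FPKM and 57.2 and 49.7 FPKM in fibroblasts, and at 1.29 and 0.95 FPKM and 0.42 and 0.55 FPKM in granulosa cells. Twist1, a basic helix-loop-helix factor of mesenchyme, stood at 27.2 and 104 FPKM against 0.38 and 0.38 FPKM, and the fibroblast libraries differed in it. The zinc finger repressors Snai1 and Snai2 had 45.1 and 30 FPKM and 34.9 and 38.3 FPKM in fibroblasts, and Tbx15, a T-box factor of the trunk, had 20.1 and 35.7 FPKM. Meox1, Alx1, Foxf1 and Dlx5, factors of somite, head and trunk mesenchyme, were listed at 0 in both granulosa libraries and lay between 1.95 and 17.8 FPKM in the fibroblast libraries.

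Part of the actin-based contractile machinery was more abundant in fibroblasts. Of 19 compared genes 11 were higher in fibroblasts and none in granulosa cells. Acta2, smooth muscle alpha-actin, stood at 2901 and 3256 FPKM against 54.1 and 53 FPKM, Actg2, the enteric smooth muscle actin, at 343 and 382 FPKM against 14.9 and 15.2 FPKM, and Cnn1, calponin, at 109 and 62.6 FPKM against 2.0 and 2.51 FPKM. Myl9, a regulatory myosin light chain, stood at 499 and 533 FPKM against 24.9 and 20.1 FPKM. Tagln, an actin-bundling protein, stood at 1896 and 1719 FPKM against 44.1 and 48.4 FPKM, and it shares most of its exon bases with another annotated gene. Srf, the serum response factor that binds the CArG box in contractile gene promoters, differed less, with 39.8 and 36.1 FPKM against 13.6 and 11.2 FPKM. The calponin family member Cnn2 stood at 713 and 523 FPKM against 100 and 95.3 FPKM.

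Start regions of 3 of these genes are shown because they carry a CArG box. In the 18 genes of the contractile list with a RefSeq window, 4 windows held the box, 3 of them from the separated genes Myl9, Cnn2 and Srf. Capitals mark the box, which begins 161 bases before the start in Myl9 (chr2:156775214-156775513, plus strand), 56 bases before it in Cnn2 (chr10:79988350-79988649, plus strand), and 82 and 62 bases before it in Srf (chr17:46556113-46556412, minus strand), all in GRCm38.p6 and written in the direction of transcription.
Myl9: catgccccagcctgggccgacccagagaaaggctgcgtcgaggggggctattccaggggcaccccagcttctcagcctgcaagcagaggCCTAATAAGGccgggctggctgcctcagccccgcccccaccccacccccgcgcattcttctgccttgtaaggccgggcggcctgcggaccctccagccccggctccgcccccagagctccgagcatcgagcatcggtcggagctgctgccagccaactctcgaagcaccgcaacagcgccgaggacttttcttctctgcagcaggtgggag
Cnn2: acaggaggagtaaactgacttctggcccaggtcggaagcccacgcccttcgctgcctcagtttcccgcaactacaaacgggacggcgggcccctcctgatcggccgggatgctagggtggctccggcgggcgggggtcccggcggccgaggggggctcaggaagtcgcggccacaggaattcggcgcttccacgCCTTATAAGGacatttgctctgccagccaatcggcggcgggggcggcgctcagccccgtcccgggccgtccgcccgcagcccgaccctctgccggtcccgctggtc
Srf: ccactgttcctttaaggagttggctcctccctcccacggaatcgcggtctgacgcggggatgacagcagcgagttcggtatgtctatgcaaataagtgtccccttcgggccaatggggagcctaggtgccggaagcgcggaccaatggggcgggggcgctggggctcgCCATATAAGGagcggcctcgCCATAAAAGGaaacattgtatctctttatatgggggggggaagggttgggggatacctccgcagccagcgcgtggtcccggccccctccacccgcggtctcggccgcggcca
The box was in 3.27% of 917 windows of genes higher in fibroblasts, in 1.43% of 1605 windows of genes higher in granulosa cells and in 1.36% of the 12244 windows of all compared genes. A match describes the letters and not a bound site.

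HOX genes, which record position along the body axis, separated by cluster. Of 30 compared genes 10 were higher in fibroblasts and 3 in granulosa cells. The Hoxa cluster supplied 7 of the 10, and of these Hoxa2, Hoxa5, Hoxa6, Hoxa9 and Hoxa10 were listed at 0 in both granulosa libraries, with Hoxa5 the highest in fibroblasts at 9.35 and 12.3 FPKM. Hoxc8 stood at 20.6 and 26.7 FPKM against 4.09 and 3.89 FPKM, and Hoxb6 and Hoxb8 were also higher in fibroblasts. The 3 genes higher in granulosa cells were neighbours in the Hoxd cluster: Hoxd9 at 7.8 and 6.93 FPKM against 0.94 and 2.27 FPKM, Hoxd10 at 10.5 and 11.3 FPKM against 0.56 and 1.33 FPKM, and Hoxd11 at 3.48 and 2.89 FPKM against 0.14 and 0.431 FPKM.

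Imprinted genes were separated mainly towards fibroblasts. Of 17 compared genes 11 were higher in fibroblasts, 1 was higher in granulosa cells and 5 were not separated, with a list median of -2.48 log2 units. Grb10, an adaptor that restrains growth factor signalling, stood at 215 and 206 FPKM against 2.83 and 2.57 FPKM. Peg3, a paternally expressed zinc finger gene, stood at 44.1 and 87.4 FPKM against 1.19 and 1.38 FPKM, and Mest at 88.1 and 134 FPKM against 3.91 and 5.36 FPKM. Dlk1, a Notch ligand relative, and Plagl1, a zinc finger factor, had 151 and 219 FPKM and 34.8 and 60.8 FPKM in fibroblasts, and 14.2 and 11.6 FPKM and 3.97 and 3.02 FPKM in granulosa cells. Snrpn, a splicing protein gene of the Prader-Willi region, was the gene higher in granulosa cells, at 15.4 and 15.8 FPKM against 6.63 and 1.19 FPKM.

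Proliferation genes leaned towards fibroblasts by small differences. Of 25 proliferation genes, all compared, 3 were separated, all higher in fibroblasts, where the share over all genes was 8.33%. They were the replication licensing genes Mcm4 and Mcm5 and the cyclin gene Ccne1. The list median was -0.82 log2 units. Ccne1 stood at 28.8 and 14 FPKM against 2.57 and 2.78 FPKM. With no minimum gap 19 of the 25 lay higher in fibroblasts, against 25.1% of all genes, and none lay higher in granulosa cells. Within the shared table alone, 15 of 25 were at least 1 log2 unit higher in fibroblasts, against 12.4% of all genes. The fibroblast libraries differed here: the list summed to 1006.5 FPKM in the shared and 568.8 FPKM in the separate table. In granulosa cells it summed to 409.5 and 438.8 FPKM. Of 17 regulators of G1, all compared, 3 were higher in granulosa cells and 5 in fibroblasts, with a list median of -0.19 log2 units. Cdkn1b, the inhibitor p27, stood at 169 and 183 FPKM in granulosa cells and 12.6 and 19.6 FPKM in fibroblasts. The inhibitor gene Cdkn1c, which is also imprinted, was the reverse at 47.1 and 115 FPKM in fibroblasts and 0.19 and 0.16 FPKM in granulosa cells. Cdkn2a and Cdkn2b, inhibitors that accumulate in cultured fibroblasts, had 6.61 and 15.1 FPKM and 32.8 and 56 FPKM in fibroblasts, and 0.35 and 0.34 FPKM and 4.88 and 5.42 FPKM in granulosa cells. Ccnd1, cyclin D1, was higher in fibroblasts, and Rb1 and Rbl2, of the retinoblastoma family, were higher in granulosa cells by 1.55 and 1.43 log2 units.

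Part of the epithelial list was higher in granulosa cells. Of 12 compared epithelial genes 6 were higher in granulosa cells and 1 in fibroblasts, and 8 other genes of the list stayed under 1 FPKM in all 4 libraries. Esrp2, an epithelial splicing regulator, stood at 24.6 and 21.8 FPKM against 0.52 and 0.397 FPKM. The simple-epithelium keratin genes Krt8 and Krt18 stood at 54.6 and 62.6 FPKM against 9.0 and 4.36 FPKM and at 43.1 and 52.9 FPKM against 16.7 and 6.15 FPKM. Dsp, Ocln and Cldn3, of desmosomes and tight junctions, were low in granulosa cells, at 4.73 and 5.91, 2.21 and 2.56 and 1.91 and 1.67 FPKM in that order. The cadherins split: Cdh2, N-cadherin, was higher in granulosa cells at 214 and 229 FPKM against 40.5 and 18.1 FPKM, whereas Cdh11, the fibroblast cadherin, and Cdh3, P-cadherin, were higher in fibroblasts at 251 and 433 FPKM against 1.47 and 7.94 FPKM and at 43 and 70.8 FPKM against 5.98 and 6.41 FPKM. Fn1, fibronectin, had 1153 and 602 FPKM in fibroblasts and 27.2 and 27.8 FPKM in granulosa cells, and the integrin genes Itga5, Itgb1 and Itgb3 were also higher in fibroblasts.

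Enzymes of detoxification and redox balance were mostly higher in granulosa cells. Of 20 genes, all compared, 15 were higher in granulosa cells and none in fibroblasts, with a median of 2.11 log2 units. Mgst1, a microsomal glutathione transferase, stood at 882 and 706 FPKM against 6.8 and 15.1 FPKM, and Gpx3, a secreted glutathione peroxidase, at 534 and 450.1 FPKM against 38.7 and 37.9 FPKM. Cytosolic glutathione transferases went the same way, with Gsta4 at 197 and 248 FPKM against 6.31 and 11.1 FPKM and Gstm1 at 318 and 256 FPKM against 17.4 and 29.5 FPKM; members of these families share sequence, so the split between members is uncertain. Cat, catalase, and Hmox1, haem oxygenase, were higher in granulosa cells by 1.97 and 1.89 log2 units.

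Retinoic acid and Wnt genes differed gene by gene. Stra6, the retinol uptake receptor, and Crabp2, which carries retinoic acid to the nucleus, stood at 6.26 and 5.24 FPKM against 0.06 and 0.24 FPKM and at 196 and 217 FPKM against 4.47 and 15.6 FPKM, higher in granulosa cells together with Aldh1a1 and the retinoic acid hydroxylase gene Cyp26b1. Crabp1, a binding protein for retinoic acid, and the retinaldehyde dehydrogenase gene Aldh1a3 were higher in fibroblasts. Wnt5a and Wnt4, secreted ligands with roles in the ovary, stood at 253 and 222 FPKM against 27.6 and 22.8 FPKM and at 45.5 and 51.5 FPKM against 10.4 and 13.5 FPKM. Axin2, a feedback target of beta-catenin, stood at 11.1 and 10.6 FPKM against 2.1 and 2.53 FPKM, and Lgr5, another gene of that pathway, was the reverse at 6.78 and 7.61 FPKM in fibroblasts and 0.08 and 0.2 FPKM in granulosa cells. The secreted antagonists also split, with Sfrp4 higher in granulosa cells and Sfrp1, Dkk2 and Dkk3 higher in fibroblasts.

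Interferon and chemokine genes were separated in both directions. Of 14 compared genes, 4 were higher in fibroblasts and 2 in granulosa cells. Ifitm3, a membrane protein that blocks virus entry, stood at 295 and 499 FPKM against 22.1 and 16.4 FPKM, and the monocyte chemokine gene Ccl2 at 22.6 and 29.2 FPKM against 1.35 and 1.33 FPKM. Oasl2, an oligoadenylate synthetase relative, was higher in granulosa cells at 17.8 and 16.1 FPKM against 3.74 and 1.71 FPKM.

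Genes of extraembryonic endoderm and of pluripotency were detected in part in the starting cells. Of 24 genes of extraembryonic endoderm, 13 were compared and 11 stayed under 1 FPKM in all 4 libraries. Gata4, the basement membrane gene Lama1 (20.2 and 22.3 FPKM against 0.98 and 2.91 FPKM) and Cited1 were higher in granulosa cells, and Pdgfra, Lamb1 and Lamc1 were higher in fibroblasts. Cited1 lost its separation after median-ratio scaling and after quantile normalisation. Of 19 pluripotency genes 10 were compared and 9 stayed under 1 FPKM in all libraries. Tfcp2l1, a factor of naive pluripotency, stood at 7.9 and 7.16 FPKM against 0.23 and 0.0987 FPKM, and Myc at 123 and 124 FPKM against 50.2 and 34.3 FPKM. Klf2, Klf5 and Tbx3 were higher in fibroblasts, with 9.79 and 11.4 FPKM against 1.51 and 1.09 FPKM for Klf5. The median of the pluripotency list was -0.63 log2 units and became 0.02 without a filter on low values.

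**Figure D4:**
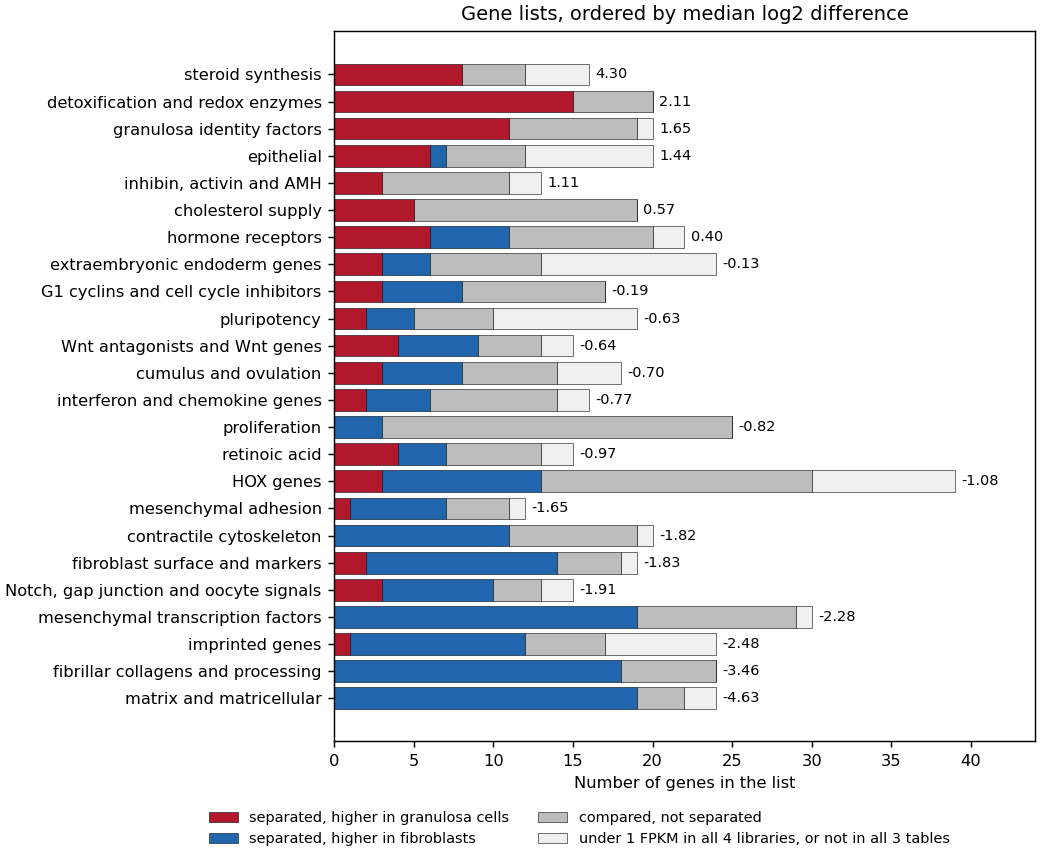
Number of genes in each of 24 lists, split into genes separated and higher in granulosa cells (red), separated and higher in fibroblasts (blue), compared but not separated (grey) and not compared (pale); the number at each bar is the median log2 difference of the compared genes, granulosa minus fibroblast. Medians run from 4.30 for steroid synthesis to -4.63 for matrix genes, against 0.29 over all genes.

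Markers of other cell types were measured in the same libraries, and their part in the differences above was not tested. Macrophage and leukocyte markers summed to 51.8 and 48.7 FPKM in granulosa cells and 150 and 163 FPKM in fibroblasts, and 6 of 13 were higher in fibroblasts, among them the complement genes C1qa (17.1 and 35.2 FPKM against 2.99 and 2.25 FPKM), C1qb and C1qc; the leukocyte gene Ptprc did not pass 1.49 FPKM in any library. Cartilage and bone markers summed to 13.6 and 15.6 FPKM in granulosa cells and 132 and 34.6 FPKM in fibroblasts. Most of that was Col2a1, the collagen of cartilage, at 94.5 and 18 FPKM in fibroblasts and 0.03 and 0.02 FPKM in granulosa cells. Skeletal muscle markers were higher in the fibroblast library of the separate table, where Des, desmin, had 33.3 FPKM against 4.68 FPKM in the other. Nes and Sox10, genes of neural and glial precursors, stood at 32 and 26.1 FPKM and 2.34 and 4.03 FPKM in fibroblasts and at 0.86 and 1.05 FPKM and 0.02 and 0.04 FPKM in granulosa cells. Keratinocyte and endothelial markers summed to at most 7.14 and 3.37 FPKM in any library.

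In the granulosa libraries, oocyte markers summed to 6.67 and 6.31 FPKM, against 1.45 and 1.37 FPKM in fibroblasts, and the egg coat genes Zp1, Zp2 and Zp3 did not pass 0.71 FPKM. Theca markers other than Star were low: Cyp17a1 was listed at 0 in all libraries and Insl3 at 0 in both granulosa libraries, while Agtr2, an angiotensin receptor of this list, was at 0 in granulosa cells and 3.08 and 34 FPKM in fibroblasts. Of 5 compared luteal markers 4 were higher in granulosa cells (Parm1, Akr1c18, Prlr and Lhcgr), with Parm1 at 502 and 450.3 FPKM against 9.94 and 8.68 FPKM. Markers of ovarian surface epithelium and mesothelium summed to 43.2 and 42.1 FPKM in granulosa cells and to 34.3 and 13.7 FPKM in fibroblasts, and Wt1 was the separated gene among them. Red cell markers summed to at most 3.82 FPKM.

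Day 16 reprogramming cells, which the series also calls XEN-like cells after extraembryonic endoderm, were placed between the starting cells gene by gene. The titles of the day 16 libraries do not name their starting cell, while the pluripotent lines of the series derive from granulosa cells. Descent from granulosa cells, or such cells left in the cultures, was not tested as a source of nearness. The position of a gene was set at 0 for the fibroblast mean and at 1 for the granulosa mean of log2(FPKM + 1), and a gene above 0.5 was nearer to granulosa cells. Of the 1457 genes higher in granulosa cells, 943 (64.7%) were nearer to granulosa cells on day 16, with a median position of 0.72 (quartiles 0.34 and 1.14). Of the 1006 genes higher in fibroblasts, 643 (63.9%) were nearer to granulosa cells, with a median of 0.70. For each day 16 library alone the shares were 62.0% and 68.0% of the granulosa genes, and 65.4% and 61.3% of the fibroblast genes. Day 16 cells passed the granulosa mean in 483 of the granulosa genes and the fibroblast mean in 118. The day 16 libraries lie in a table of their own with larger FPKM sums, 577897 and 494283, and after scaling to equal sums the shares were 56.0% and 69.9%. In all, 1586 separated genes were nearer to granulosa cells, and the number was 2886 without the fibroblast library of the shared table, which is 70.7% of the granulosa genes and 62.1% of the fibroblast genes found by that comparison. Within the shared table alone, 2493 were nearer to granulosa cells.

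**Figure D5:**
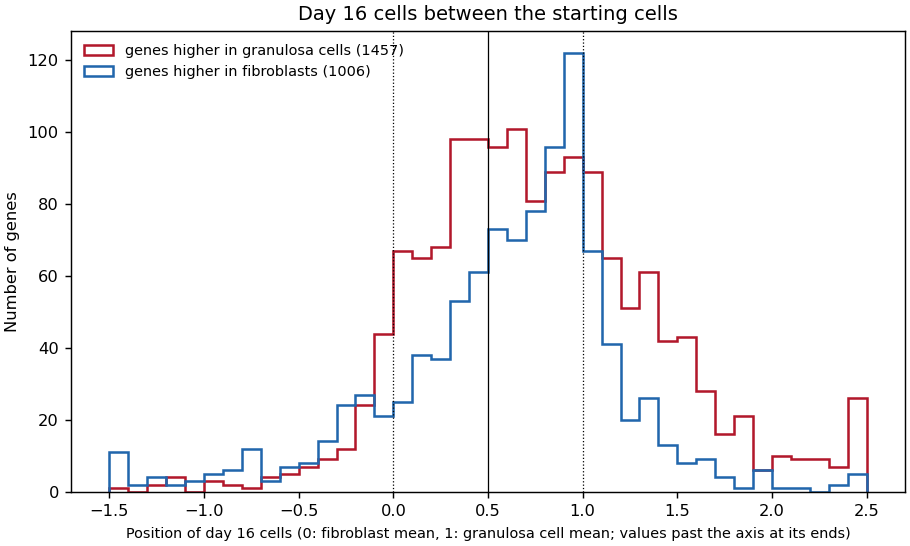
Number of genes by the position of day 16 cells between the fibroblast mean (0) and the granulosa mean (1) of log2(FPKM + 1), for the 1457 genes higher in granulosa cells (red) and the 1006 higher in fibroblasts (blue); the solid line at 0.5 marks the midpoint, and positions beyond the axis are counted in its end bins. Both distributions have their median on the granulosa side, at 0.72 and 0.70.

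Steroid genes stood at unequal shares of their granulosa level on day 16. Of 8 separated genes 6 were nearer to granulosa cells, near the share of 64.7% over all genes higher in granulosa cells. Star stood at 341 and 373 FPKM, as high as in granulosa cells, and Cyp11a1 at 1150.1 and 1075 FPKM, while Hsd3b1 had 36.6 and 33.6 FPKM and Hsd17b1 4.36 and 3.17 FPKM. Of the 11 separated granulosa factors 6 were nearer to granulosa cells and 5 nearer to fibroblasts: Gata4 (81.2 and 77.8 FPKM), Nr5a1 (48.6 and 45.2 FPKM) and Foxl2 (21.4 and 23.3 FPKM) lay near their granulosa levels, and Nr5a2 was at 0.31 and 0.42 FPKM, near its fibroblast level. Inha stood at 98.3 and 77.8 FPKM, and Inhba at 24.4 and 23.6 FPKM, below both starting cells. Detoxification genes all lay nearer to granulosa cells, 15 of 15, and several exceeded them: Gsta4 had 1993 and 1402 FPKM and Gpx3 2085 and 1522 FPKM. All 6 epithelial granulosa genes were nearer to granulosa cells as well, with Krt18 at 325 and 257 FPKM, and Wt1 stood at 117 and 178 FPKM, above both starting cells. In some other lists, most of the genes higher in granulosa cells were nearer to fibroblasts on day 16. Nearer to granulosa cells were 2 of 6 hormone receptors and 1 of 3 inhibin and activin genes. The counts were 0 of 3 for cumulus genes and 1 of 4 for luteal genes. Several further lists went the other way. There, 4 of 5 cholesterol supply genes, 3 of 3 HOX genes and 3 of 4 retinoic acid genes were nearer to granulosa cells.

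Fibroblast genes mostly lay nearer to the low granulosa level on day 16, with named exceptions. Of the separated mesenchymal factors 17 of 19, of the collagen genes 13 of 18, of the matrix genes 15 of 19 and of the contractile genes 9 of 11 were nearer to granulosa cells. The share over all genes higher in fibroblasts was 63.9%, and the collagen genes lay near it. Postn stood at 8.07 and 8.52 FPKM, Pdgfrb at 0.59 and 0.58 FPKM and Col1a1 at 67 and 71.9 FPKM. Higher levels were found for Col3a1, with 218 and 303 FPKM, and for Pdgfra, a gene that also marks extraembryonic endoderm, with 25.3 and 39.4 FPKM, above both starting cells. Imprinted genes split, with 4 of 11 nearer to granulosa cells: Igf2 stood at 254 and 236 FPKM, Mest at 149 and 146 FPKM and Cdkn1c at 55.1 and 54.3 FPKM. None of the 8 separated G1 regulators was nearer to granulosa cells, and Cdkn2a (101 and 77.8 FPKM) and Ccnd1 (93.2 and 125 FPKM) exceeded both starting cells. Of the 5 Wnt genes higher in fibroblasts 1 was nearer to granulosa cells, and Dkk3 stood at 63.6 and 79.3 FPKM. The macrophage genes C1qa, C1qb and C1qc did not pass 0.1 FPKM on day 16.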

How the data were processed

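Transcript levels were deposited by the authors as FPKM, per the file headers, in 5 tables, of which 3 hold the starting cells. Per the labels' protocols, a Qiagen kit served for RNA and the NEBNext Ultra kit for the libraries. The build mm10 is named per the submitters' processing notes, which also list HISAT2, Bowtie2, DESeq2, RSEM and R (3.4.2) without saying what each did. FPKM are not counts, and no count model was run.

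Tables were joined by gene symbol, which gave 16918 genes. The separate fibroblast table lists Ensembl IDs, and 30659 of 30849 (99.4%) received a symbol. Of 21376 of its genes with a value and a length, 16573 (77.5%) gave whole reads within 0.01, which is too few for a count test and yields the scaling depth alone. Values were compared as log2(FPKM + 1), which understates changes of low genes, for genes with at least 1 FPKM in at least 1 library. No test was run, and separated genes are described by counts. Named genes are the 5 markers given for the comparison, the 12 separated genes with the largest difference in each direction whose higher mean is at least 5 FPKM, up to 6 separated members of each list with the largest difference, further members that a sentence needs, and genes on which libraries of a group disagree. A few genes that enter the counts are not reported here by name. Members and lists were chosen with earlier results of these data known. Alternatives were another pseudocount, other filters on low values, 3 scalings, other gaps, protein-coding genes alone, leaving out each library, the shared table alone, a join by gene ID, and leaving out overlapping genes. Python 3.11.15, pandas 2.3.3, numpy 2.4.6, scipy 1.17.1 and matplotlib 3.10.9 were used.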

Additional observations from a re-analysis of the deposited data

How the results depend on the processing

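No separated gene became separated in the opposite direction after median-ratio scaling, quantile normalisation, scaling to equal sums or a join by gene ID. The other alternatives keep the order of a gene's values, so they could not reverse a direction and do not test it. With a gap of 2 log2 units, 461 genes were higher in granulosa cells, 446 were higher in fibroblasts and 582 were nearer to granulosa cells on day 16, and with no minimum gap these counts were 5614, 3037 and 5181, by the construction of the rule. In the shared table alone, 2234 genes were higher in granulosa cells and 2493 were nearer to them on day 16. Leaving out 1 library gave 1612 to 2759 genes higher in granulosa cells and 1067 to 1508 higher in fibroblasts. Between 1720 and 2886 were then nearer to granulosa cells on day 16. Fewer values have to be apart whichever library is left out. The highest counts came without the fibroblast library of the shared table, and the cause was not tested. The median difference of all genes, 0.29, was 0.010 after median-ratio scaling, 0.028 after quantile normalisation, 0.097 after scaling to equal sums and 0.070 with no filter on low values, and ran from 0.23 to 0.33 when 1 library was left out. Of 159 genes singled out, Cited1 and Inhba were no longer separated after median-ratio scaling, Cited1 after quantile normalisation and Inhba after scaling to equal sums; a gap of 2 left 118 and a filter at 5 FPKM left 149, and the cause was not tested. The medians of the pluripotency, theca and endothelium lists changed sign under at least 1 alternative. A join by gene ID shared 2462 of the 2463 separated genes, and leaving out overlapping genes removed 30; these alternatives were chosen after seeing the data. No paired analysis was possible because the fibroblast columns carry no replicate number of the labels and nothing was tested. Depth is known for 1 of the 4 libraries alone, which limits what can be said of genes near 0.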

Other observations

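Some genes of interest are not listed in all 3 tables and were not compared. The imprinted RNA gene H19 stood at 0.86 FPKM in granulosa library 1 and 2909 FPKM in the fibroblast library of the separate table, and Meg3, another imprinted RNA gene, at 130 and 61.1 FPKM. Xist, the RNA that silences an X chromosome, stood at 23.0 FPKM in granulosa library 1 and 11.3 FPKM in the fibroblast library of the separate table. Fshr, the receptor of follicle-stimulating hormone, had 2.18 and 1.63 FPKM in the granulosa libraries and was listed at 0 in the fibroblast library of the shared table. These values come from 1 fibroblast library each.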
